A study of Mus musculus with 2 samples.

Results

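The 10 genes described here encode enzymes, enzyme enhancers and a chaperone that act in the processing and crosslinking of collagen. Of these, 9 are among the 18193 mouse genes that the array annotation pairs with a probe set of their own. The 10 members are the lysyl oxidases Lox, Loxl1, Loxl2, Loxl3 and Loxl4, the peroxidase Pxdn, the procollagen enhancers Pcolce and Pcolce2, the collagen chaperone Serpinh1 and the lysyl hydroxylase Plod2. A member was found by its symbol, through probe sets that list this gene alone. RNA of 2 mouse cell lines that the labels call epithelial, Mlesico and Mle29c, was hybridised to 1 array each, and the title of the series names miR-29c and pulmonary fibrosis. The labels give for either line no treatment, no promoter or vector, no passage and no number of clones, and the level of miR-29c in Mle29c is not described; both lines were grown in DMEM with 10% serum. Differences are given as log2 ratios of Mle29c over Mlesico. A single array of each line leaves replicate error unknown, no p-value is given, and the number of arrays limits the precision.

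Collagen chains are modified and folded in the endoplasmic reticulum, exported, trimmed of their propeptides outside the cell and then crosslinked. Lysyl oxidases turn lysines of collagen and elastin into aldehydes that form covalent crosslinks, while peroxidasin links collagen IV chains of basement membranes through sulfilimine bonds. In the lung these steps set the stiffness of the matrix, and lysyl oxidases and lysyl hydroxylation have long been studied in fibrosis.

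The mature sequences of the miR-29 family are shown because the line Mle29c is named for a family member. Matrix genes are the best known targets of the family. The sequences come from RefSeq (GRCm38.p6), and the capitals mark the seed, bases 2 to 8, which pairs with target transcripts.
mmu-miR-29a-3p: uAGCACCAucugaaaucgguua
mmu-miR-29b-3p: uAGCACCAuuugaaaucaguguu
mmu-miR-29c-3p: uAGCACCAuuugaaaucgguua
The seed was the same in all 3, and miR-29a differed from miR-29c by the substitution U10C, counted from the 5′ end with the miR-29c base first. The miR-29c sequence lies at chr1:195037600-195037621 on the plus strand, and miR-29a at chr6:31062673-31062694 on the minus strand. Target sites in the members' transcripts were not analysed here.

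Of the 10 members, 7 were measured, in 11 probe sets. Each probe set was put in a level class: high for a mean log2 signal of 8 or more over both arrays (a signal of 256), middle for 4 to 8 and low below 4. The authors had removed the level by centring, so the class was read from the rounding that single-precision storage left in the values. A gene was called measured with at least 1 probe set in the high or middle class, and its ratio is the median over those. Lox and Loxl1 had probe sets of the low class only, 5 in all. Both probe sets for Loxl2 also list the predicted gene Gm21451, so Loxl2 has no value. Among the measured members 3 were at least 2-fold higher in Mle29c (Pcolce2, Loxl4 and Serpinh1), against 8.46% of 14780 measured genes. Pxdn alone was at least 2-fold lower, against 7.25% of all genes, and the other 3 were within 2-fold. The median of the 7 was 0.73, against 0.01 over all measured genes, and 5 lay above 0. As a technical scale, log2 ratios of measured probe sets for the same gene had a pooled SD of 0.62 over 6844 genes, which holds no difference between cultures.

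**Figure D1:**
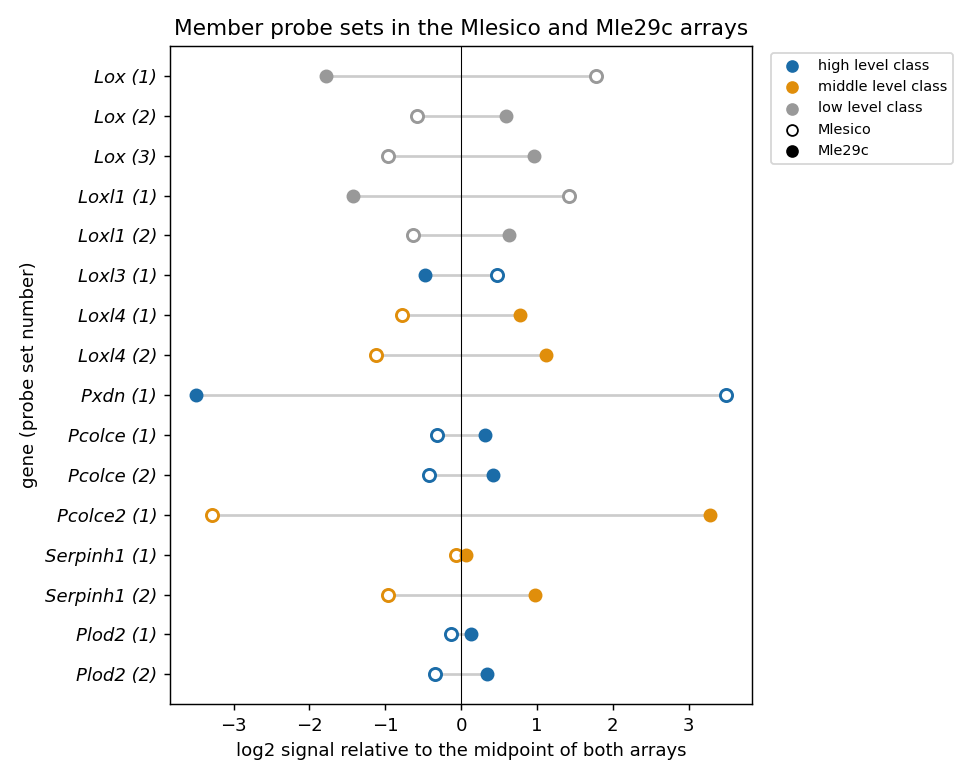
Centred log2 signal (x axis) of each member probe set (rows, numbered by ratio within a gene) in Mlesico (open circles) and Mle29c (filled circles), coloured by level class, with 1 array per line. Pxdn spans 3.49 to -3.49 and Pcolce2 -3.29 to 3.29, while the grey low-class probe sets of Lox and of Loxl1 point in opposite directions.

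Pxdn, the crosslinking peroxidase of collagen IV, had the widest difference of the members. Its only probe set stood at 3.49 in Mlesico and -3.49 in Mle29c around their midpoint. The log2 ratio of -6.99, a size of 127-fold, was at rank 7 from the lowest among all measured genes. The high class came from the rounding step, which gives the highest level the number allows. All 14 high-class probe sets with a log2 ratio of 6 or more in size were classed from the step, and 0 of the 6265 classed from the sum differed this much. If the high class holds, the log2 level was at least 11.5 in Mlesico and at least 4.51 in Mle29c, so that the Mlesico signal was strong and the Mle29c signal may have been near the low range. Since RNA of whole cultures was measured, fewer expressing cells and less RNA per cell cannot be told apart.

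Pcolce2, which encodes an enhancer of the protease that removes the procollagen C-propeptide, lay at the opposite end. Its only probe set stood at -3.29 in Mlesico and 3.29 in Mle29c, a log2 ratio of 6.57 or 95.3-fold, at rank 10 from the highest. Its probe set was in the middle class, again from the rounding step, where 0.19% of probe sets differed by more. With a mean level below 8, the Mlesico log2 level was below 4.71 and the Mle29c level between 7.29 and 11.3 if the class is right. The size thus rests on a Mlesico signal in or near the low range, where signals vary widely. Pcolce, the paralog with the same type of role, was measured in 2 high-class probe sets at -0.31 and -0.42 in Mlesico against 0.31 and 0.42 in Mle29c. Its ratio was 0.73, with 0.63 in the probe set classed from the sum and 0.83 in that from the rounding step. Both point the same way within 2-fold. The procollagen C-proteinase gene Bmp1, whose product both enhancers assist, stood at 0.69. Its measured probe sets, at 0.67 and 0.71, were both in the high class by the rounding step.

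The 250 bases upstream of the annotated start are shown for these genes, the lowest and the highest member (RefSeq, GRCm38.p6, both on the plus strand; Pxdn at chr12:29937786-29938035, Pcolce2 at chr9:95637378-95637627). Capitals mark matches, on either strand, to the GC box GGGCGG, the hypoxia response core ACGTG and the TATA box TATAAA, which do not overlap each other here.
Pxdn: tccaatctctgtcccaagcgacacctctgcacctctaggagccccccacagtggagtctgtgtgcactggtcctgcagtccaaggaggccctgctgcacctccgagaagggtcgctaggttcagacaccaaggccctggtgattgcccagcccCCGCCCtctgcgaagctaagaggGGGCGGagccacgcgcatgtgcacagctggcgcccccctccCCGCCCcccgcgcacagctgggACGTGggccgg
Pcolce2: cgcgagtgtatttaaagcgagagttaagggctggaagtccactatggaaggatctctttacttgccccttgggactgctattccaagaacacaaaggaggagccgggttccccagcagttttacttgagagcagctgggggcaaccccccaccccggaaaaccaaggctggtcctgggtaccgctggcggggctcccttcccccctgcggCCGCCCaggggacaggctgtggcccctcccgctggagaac
The Pxdn window held 3 GC boxes and 1 hypoxia core, and the Pcolce2 window 1 GC box; neither held TATAAA. Among 32851 promoter windows of this length, 32.7% held the GC box, 16.6% the hypoxia core and 12.4% the TATA box. GC content was 68% for Pxdn and 61.2% for Pcolce2, against a median of 52.4%. The matches describe these windows and are not sites of binding. Of the 10 members 5 had a promoter window in the table.

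The lysyl oxidases differed among themselves. Loxl4, a secreted oxidase with scavenger receptor domains, was higher in Mle29c in both of its probe sets, which stood at -0.78 and -1.12 in Mlesico against 0.78 and 1.12 in Mle29c. Its ratio was 1.90, or 3.73-fold, with 1.56 and 2.24 in the probe sets. Both were in the middle class by the sum of the 2 values, and 5.39% of measured genes differed by more. Loxl3, of the same domain type, stood at 0.48 in Mlesico and -0.48 in Mle29c, a ratio of -0.96 from 1 probe set, in the high class by the rounding step, just inside 2-fold. The log2 ratio of Loxl4 was 2.86 above that of Loxl3.

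Lox, the founding member of the family and a crosslinker of fibrillar collagen and elastin, had no measured probe set. Its 3 low-class probe sets stood at 1.78, -0.59 and -0.96 in Mlesico, with mirrored values in Mle29c, giving log2 ratios of -3.57, 1.17 and 1.92. Loxl1, which is tied to elastic fibre upkeep, had low-class probe sets at 1.42 and -0.63 in Mlesico, with ratios of -2.84 and 1.26. Within each of these genes the probe sets disagreed in direction, and no direction is given for either. Of all low-class probe sets 56.1% differed by 2-fold or more, against 10.6% in the high class and 22.9% in the middle class. A low class means a weak signal on this array and does not show that the transcript is absent.

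Serpinh1 encodes HSP47, the chaperone that binds the folded procollagen triple helix in the endoplasmic reticulum. Its probe sets were both in the middle class and stood at -0.07 and -0.97 in Mlesico, with ratios of 0.14 and 1.94 that differ by more than the SD between probe sets. The median of 1.04 lay just past 2-fold and rests on the upper probe set, whose type can match other transcripts. Without it the value was 0.14, from a probe set classed by the rounding step, whereas the upper one was classed from the sum. Plod2, the lysyl hydroxylase of collagen telopeptides, stood at -0.13 and -0.34 in Mlesico against 0.13 and 0.34 in Mle29c, both in the high class. Its ratio was 0.47, with 0.26 in the probe set classed from the sum and 0.68 in that from the rounding step. Of measured genes 40.3% differed by more. The related lysyl hydroxylase genes Plod1 and Plod3, named after their values were seen, stood at -0.99 and -0.06.

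**Figure D2:**
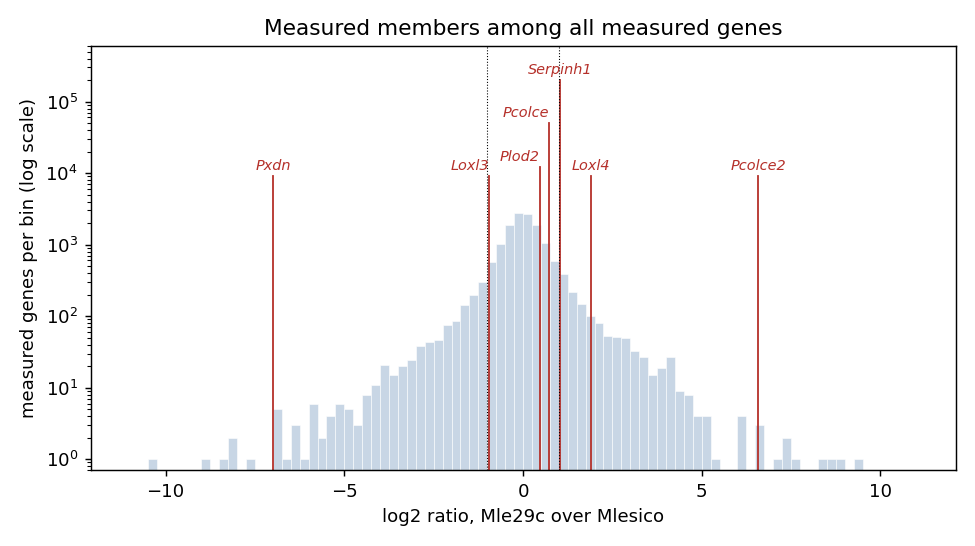
Histogram of the log2 ratio of all 14780 measured genes (x axis, bins of 0.25; y axis, genes per bin on a log scale), with red lines at the 7 measured members and dotted lines at 2-fold; line height carries no value. Pxdn at -6.99 and Pcolce2 at 6.57 lie in the thin tails, and the other 5 lie between -0.96 and 1.90.

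Of 77 other genes of collagen making, linking and breakdown, 60 were measured. In Mle29c 4 of these (6.67%) were at least 2-fold higher and 10 (16.7%) at least 2-fold lower, against 8.46% and 7.25% of all measured genes, with a median of -0.12. The lower genes were 4 collagen IV chains, Col1a1, Mmp2, Ctsk, Thbs1, Fmod and Tmem38b.

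Collagen IV, the substrate of peroxidasin, was below 0 in all 6 chains, as were 7339 of all 14780 measured genes. Of the chains 4 were at least 2-fold lower, against 7.25% of all measured genes (list median -1.03). Col4a6 stood at -4.20, with probe sets at -4.90 and -3.50, both classed from the sum. Col4a1, which pairs with Col4a2 in the common basement membrane network, stood at -2.15 (probe sets at -2.87 and -1.44) and Col4a2 at -1.03 from 1 probe set. The probe sets of both genes were in the middle class by the rounding step, where 27.4% of probe sets differed by 2-fold or more. Col4a5 was at -1.02, and at -0.90 when set against the median of chromosome X. Col4a3 and Col4a4 were within 2-fold, at -0.27 and -0.11. The Pxdn ratio of -6.99 lay below every collagen IV chain.

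Fibrillar collagens and elastin, the substrates of the lysyl oxidases, did not share a direction. Of 12 genes 8 were measured, with 1 higher, 1 lower and a median of 0.44. Col1a1 stood at -3.41 with probe sets at -3.63 and -3.18, whereas Col1a2, its partner chain in collagen I, stood at 0.09 and at -0.23 against the median of its chromosome. Col3a1 was at 1.55, but its high-class probe set stood at 0.50 and the other at 2.59. Among the propeptide proteases 4 of 9 were measured. Mep1a, a meprin subunit, was at 1.33, and within 2-fold at 0.83 with every probe set kept. The proprotein convertase gene Furin was lowest at -0.35. Adamts2, which removes the N-propeptide, has no probe set of its own here.

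Of 17 measured genes of collagen hydroxylation and folding 16 were within 2-fold (median -0.07), and of all measured genes 84.3% were. They ranged from Fkbp14, a prolyl isomerase gene, at 0.62 to Tmem38b, an ion channel gene of the endoplasmic reticulum, at -1.11. Tmem38b was at -0.48 over probe sets classed from the sum. With every probe set kept, Fkbp14 was at 1.56 and Fkbp7, another prolyl isomerase gene, at -1.24. All 10 measured export genes were within 2-fold, a count near the share over all genes (median -0.21), with the coat genes Sec24d at -0.72 and Sec24c at 0.05. With every probe set kept Sec24c was at -1.17, past 2-fold. Plod2 and Serpinh1, which also act inside the cell, stood above both list medians.

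Among lysyl oxidase cofactors, scaffolds and other crosslinkers, 9 of 11 were measured, with 2 higher and 2 lower. Postn, whose product periostin binds the lysyl oxidase activator BMP1, was at 2.39 from 1 probe set, in the high class by the rounding step. Fn1, the fibronectin gene, stood at 1.08 with probe sets at 0.93 and 1.23, the former alone in the high class. Thbs1, a thrombospondin gene, stood at -1.25 with probe sets at -1.72 and -0.78, and only the latter was classed from the sum. Fmod, which encodes the collagen-binding fibromodulin, stood at -1.05 over 6 probe sets. Only 1 of them was in the high class, at 0.34, and it was classed from the rounding step. The others, in the middle class by the sum, lay between -1.29 and -0.98. Of 6 measured collagen breakdown genes 2 were lower, the gelatinase gene Mmp2 at -4.48 and the cathepsin K gene Ctsk at -2.58. Both ratios rest on 1 measured probe set each, in the middle class by the rounding step. The highest gene of this list was the collagen receptor gene Mrc2 at 0.45.

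**Figure D3:**
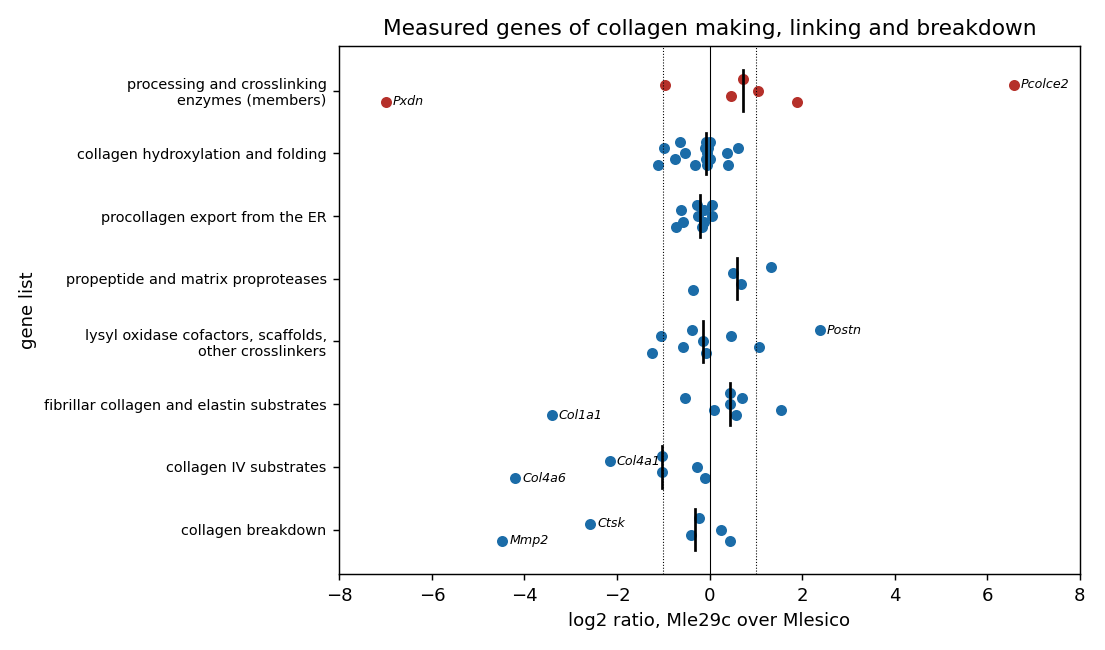
Log2 ratio (x axis) of each measured gene by list (rows): the 7 members in red and the other lists in blue, black bars at list medians, dotted lines at 2-fold, and names for genes past 2 in size. All 6 collagen IV genes lie left of 0, with a median of -1.03, and the members spread from -6.99 to 6.57.

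Neighbouring genes did not share the differences of Pxdn and Pcolce2. Among the 10 nearest measured genes on each side, those of Pxdn on chromosome 12 had a median of 0.24 with none at least 2-fold lower, and their range was -0.15 to 1.66. Those of Pcolce2 on chromosome 9 had a median of 0.11, with 2 higher and 2 lower, and they include Plod2. Loxl4 lies on chromosome 19, whose genes had a median of 0.27; its 20 neighbours had a median of 0.65, and 4 were at least 2-fold higher. Against the chromosome median Loxl4 stood at 1.63. Loxl3 lies on chromosome 6, where the chromosome median was 0.32 and that of its neighbours 0.55, and against the chromosome median it stood at -1.28, past 2-fold. Serpinh1, with a neighbour median of 0.01, stood at 1.01 after this step. The part of chromosome-wide shifts in the ratios of Loxl3 and Loxl4 was not tested further.

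**Figure D4:**
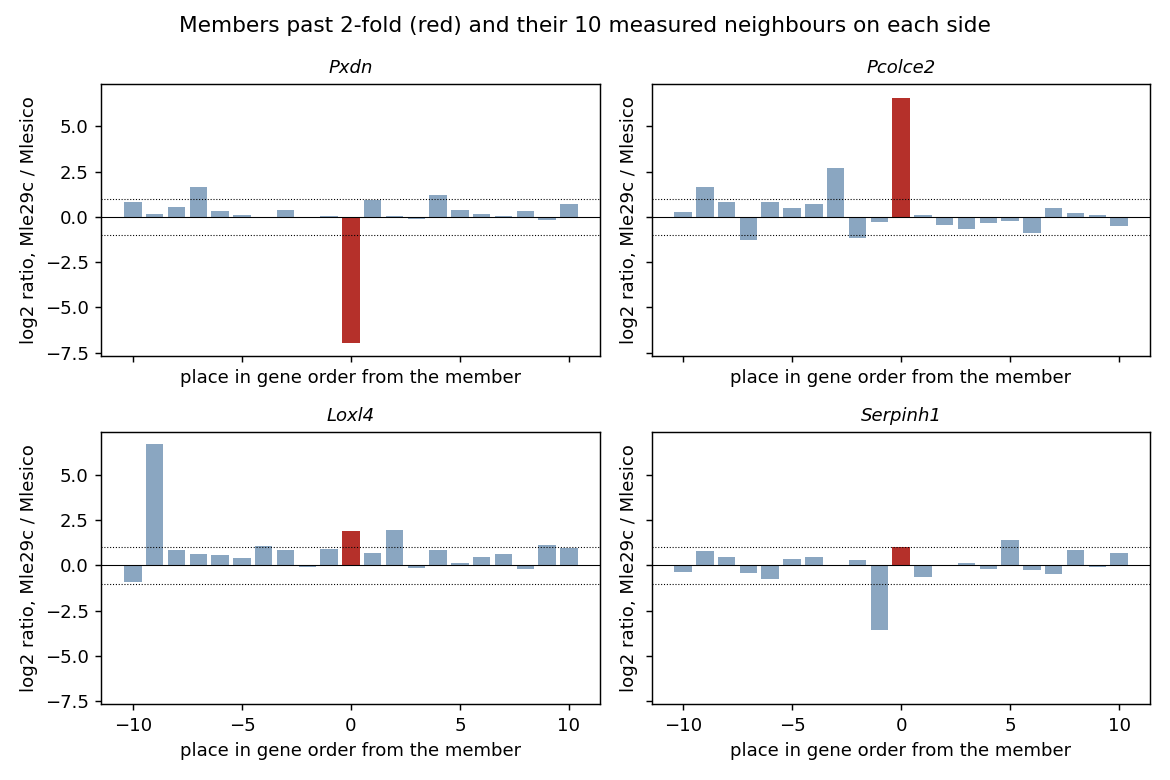
Log2 ratio (y axis) of the 4 members past 2-fold (red) and of their 10 nearest measured genes on each side in gene order (blue), with dotted lines at 2-fold. The Pxdn neighbours range from -0.15 to 1.66 against -6.99 for Pxdn, while 4 of the 20 Loxl4 neighbours are at least 2-fold higher.

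The lines could be checked against epithelial markers only by level class. Of 12 markers 10 were measured, 4 of them in the high class, and Cldn4 and Ocln had low-class probe sets only. Of the 4 high-class markers, only Krt8 had a high-class probe set classed from the sum. Krt19, Cldn3 and Elf3 were in that class by the rounding step, which can place a dim probe set too high. The other Cldn3 probe sets were in the low class. The list median was -0.14, with Cdh1, the E-cadherin gene, highest at 1.46 and Esrp1, an epithelial splicing regulator, lowest at -4.51. Of 12 fibroblast markers 10 were measured as well, 4 in the high class, with a median of 0.12, from Dcn at -0.32 to Col3a1 at 1.55. Dcn and Vim had high-class probe sets by the sum, Pdgfra and Col3a1 by the rounding step alone. Pdgfrb and Twist1 were in the low class only. The part of these markers in the members' ratios was not tested.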

How the data were processed

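Total RNA of Mlesico and Mle29c cells was hybridised as biotin-labelled cRNA, per the labels' protocols, with 1 array per line. The submitters' processing notes name MAS5, a method that summarises probes into 1 signal, without a version. The deposited values are logarithms, taken as log2, from which the authors subtracted the midpoint of the pair, so the 2 values of a probe set sum to 0 within 1e-06 and each column's median is 0. No source gives the base of the logarithm; with base 10 the widest difference would be 2.09e+10-fold, and a natural log would make every fold larger than printed. Direction follows the column labels.

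Of 45101 probe sets, 34945 list 1 gene in the platform annotation of 2016, 932 list several, 9160 list none here and 64 are array controls. Current symbols came from a GRCm38.p6 gene table by gene number, which held 34741; the other 204 kept theirs. That table gave chromosomes and gene order. The level class was read from the pair's sum where it is not 0, and otherwise from the rounding step, which can place a dim probe set too high. The recovery was tested on simulated data with differences smaller than those of Pxdn and Pcolce2. A pass was required there only for classes from the sum, so the test does not settle classes from the step. Genes with low or tied probe sets only (3413) were left out of counts. Called means at least 2-fold. The members and lists were chosen with earlier results of these data known. Named genes are the members; in each list up to 4 higher and 4 lower genes past 2-fold, or else the extremes; Col1a1, Col1a2, Col4a1, Col4a2, Bmp1 and Adamts2; and the extremes of the marker lists. Plod1, Plod3, Col4a3, Fkbp7 and the marker genes given for their level class were named outside this rule, after their values were seen. Alternatives changed the floor, the class, the summary over probe sets, the centring and the threshold. Python 3.11.15, pandas 2.3.3, numpy 2.4.6 and matplotlib 3.10.9 were used.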

Additional observations from a re-analysis of the deposited data

How the results depend on the processing

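No paired analysis was possible because each line has 1 array and no result comes from a test. A value is said to move when it changed by more than the SD between probe sets, or a count by more than 1.5 times. With no floor, 19 pathway genes were at least 2-fold lower, and of all 18193 genes 2252 were higher and 1980 lower. In the high class alone, 4 members remained measured, with a median of -0.25. Pcolce2, Loxl4 and Serpinh1, with middle-class probe sets only, left by construction. The count of members at least 2-fold higher (0 of 4) was thus fixed in advance. Pathway genes numbered 2 higher and 4 lower there, all genes 679 and 554, and Fmod turned to 0.34, from 1 probe set classed from the step. With the class from the sum alone, 4 members were measured, 0 of them lower, since Pxdn, Pcolce2 and Loxl3 left by construction. Pathway genes then numbered 0 higher and 4 lower, and all genes 625 and 548. The number of genes measured in the high class alone or from the sum alone is not given, so these counts form no shares. Centring within chromosomes put 2 members lower, with 1192 of all 14780 measured genes higher and 1078 lower. A 1.5-fold threshold also put 2 members lower, with 7 pathway genes higher, and all genes numbered 2465 and 2259. At 4-fold 1 member was higher, pathway genes numbered 1 higher and 5 lower, and all genes 396 and 343. Serpinh1 moved to 1.94 with the class from the sum and to 0.14 without probe sets that can match other transcripts. The mean over probe sets moved none of the results in this sense, though Fmod came within 2-fold at -0.88. Fewer probe sets or another threshold enter by construction, and other causes were not tested. Dim signals limit Lox and Loxl1, and Pxdn, Pcolce2 and Loxl3 rest on 1 probe set each.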
